A study of Mus musculus with 12 samples.

Results

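Cytokine receptor subunits are described here in regulatory T cells (Treg) with and without the transcription factor Ikaros. The 10 genes are Il2rb, Il2rg, Il7r, Il4ra, Il6ra, Il6st, Il27ra, Il12rb1, Il12rb2 and Il1rl1, and they were taken by symbol from an RNA-Seq table of 36222 genes. Each symbol had 1 gene identifier in the table.

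Most of these receptors carry no enzyme of their own. A cytokine brings 2 or more chains together at the cell surface, Janus kinases (JAK) bound to the chains become active, and STAT proteins carry the signal to the nucleus. Treg depend on IL-2 and related cytokines that use the common gamma chain, while cytokines of the gp130 and IL-12 families act on T cell differentiation and Il1rl1, the IL-33 receptor, marks many tissue Treg.

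The cells came from mice of the B6 background aged 6 to 8 weeks. The wild-type (WT) mice carried YFP Cre alone, a Cre recombinase and yellow fluorescent protein expressed from the Foxp3 gene, and the Ikzf1 conditional knockout (cKO) mice carried the same Cre with floxed Ikzf1, the gene of Ikaros. Cre is therefore present in both genotypes, and deletion takes place only in cells that express or have expressed Foxp3. CD4+ T cells of single mice, labelled as from spleen, were sorted for YFP. RNA was taken either from the unstimulated cells (ex vivo) or after 4 h of culture with plate-bound antibodies against CD3 and CD28 at 1 µg/ml (stimulated). Each of the 4 groups, ex vivo WT, ex vivo cKO, stimulated WT and stimulated cKO, held 3 libraries. No group is labelled as cultured without antibody, so effects of the antibodies and of the culture cannot be told apart. Bulk RNA cannot tell fewer cells of a kind from less RNA per cell.

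Libraries held 8208659 to 20247649 reads assigned to genes, the fewest in stimulated cKO. Levels are TPM, which divide the reads of a gene by its length and set the total of each library to the same value, brought to a common scale by the trimmed mean of M-values, called scaled TPM, and are given in the order of replicates 1, 2 and 3. A log2 change is a difference of log2(scaled TPM + 1), with its standard error (SE). A fold is 2 to the power of this change, so for low genes it understates the ratio of the levels. The changes come from 1 limma fit of 13318 genes in all 12 libraries, and a gene was called when its Benjamini-Hochberg adjusted p was under 0.05. A single transcript, Gm10800, took 17.7% to 55.9% of the TPM of a library, with group means of 26.0% in ex vivo WT, 22.9% in ex vivo cKO, 38.1% in stimulated WT and 48.8% in stimulated cKO. Library 3 of ex vivo WT held Xist, a transcript of female cells, at 179 TPM as deposited, while the other 11 libraries held at most 1.36. Ikzf1, the targeted gene, had a mean of 110.1 scaled TPM in ex vivo WT and 37.9 in ex vivo cKO, and of 68.9 in stimulated WT and 27.8 in stimulated cKO, with no overlap of the genotypes. Its level in cKO was 34.4% of ex vivo WT and 40.3% after stimulation. All 8 markers of Treg in the marker list passed the expression minimum, and their summed level was 1303 to 2270 scaled TPM in the 12 libraries.

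Between genotypes, 1 of the 10 subunits differed ex vivo and 7 differed after stimulation. Ex vivo, only Il1rl1 was called, and it was higher in cKO, in a comparison that called 3.62% of all tested genes higher and 1.67% lower. After stimulation 3 subunits were higher in cKO (Il12rb1, Il12rb2 and Il1rl1) and 4 were lower (Il7r, Il6ra, Il6st and Il27ra), where 3.3% of all tested genes were called higher and 3.63% lower. The median log2 change of the 10 subunits was -0.23 ex vivo and -0.12 after stimulation, against -0.01 and -0.03 over all tested genes. Before adjustment, 7 subunits ex vivo and 9 after stimulation had a p under 0.05, as had 2384 and 3166 of the 13318 tested genes.

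Stimulation, here antibodies and culture together, lowered most of the subunits. In WT it lowered 6 (Il2rb, Il4ra, Il6ra, Il6st, Il27ra and Il12rb1) and raised Il1rl1, where it called 12.7% of all tested genes higher and 19.3% lower. In cKO it lowered 6 (Il2rb, Il2rg, Il7r, Il6ra, Il6st and Il27ra) and raised Il12rb2 and Il1rl1, where 17.3% of all tested genes were called higher and 26.5% lower. The median log2 change of the subunits was -0.70 in WT and -0.60 in cKO, and that of all tested genes 0.00 and -0.01. All 10 subunits passed the expression minimum, Il12rb2 only through its level in stimulated cKO, so its own rise there is in part why it was tested. The 4 comparisons share libraries in pairs and are not independent of each other.

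**Figure D1:**
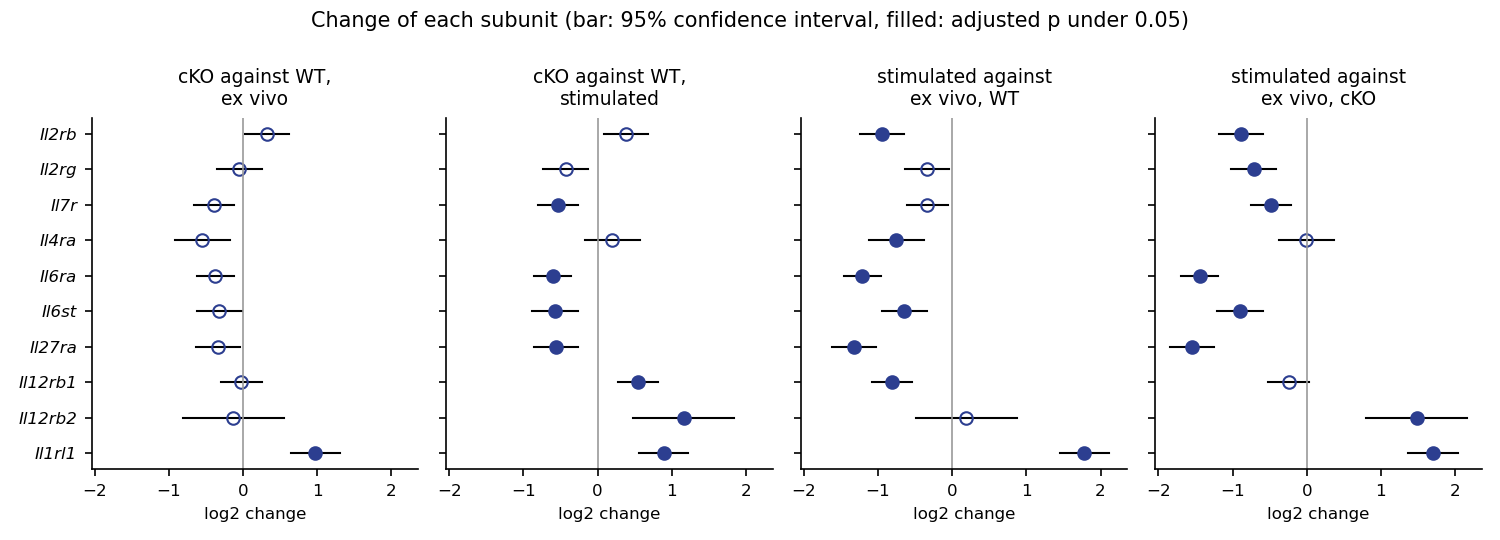
Log2 change of each of the 10 subunits (x axis) in the 4 comparisons (panels), as points with 95% confidence intervals from the limma fit, filled where the adjusted p was under 0.05. Il1rl1 lies right of 0 in every panel, while Il6ra, Il6st and Il27ra lie left of 0 in every panel and are open only for the genotype comparison ex vivo.

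The calls of the genotype comparison after stimulation rested on single libraries more than the others did. Called subunits numbered 1 without stimulated WT 2, 2 without stimulated cKO 1, 3 without stimulated WT 3 or without stimulated cKO 3, 4 without stimulated WT 1, 5 without ex vivo WT 3, ex vivo cKO 1 or ex vivo cKO 3, and 6 without ex vivo cKO 2. Calls over all tested genes fell too, from 923 to 398 without stimulated WT 2 and 447 without stimulated cKO 1. They numbered 456 without stimulated WT 3, 602 without stimulated cKO 3 and 580 without stimulated WT 1, and 722 to 1058 in the other fits. Il1rl1 was called in all 12 of these fits, Il6ra in 11, Il12rb1 in 8, Il7r and Il27ra in 7, Il6st in 6 and Il12rb2 in 2. With a minimum of 1 TPM, at which 33873 genes were tested and scaled, limma called 0 of the 10 subunits in either genotype comparison. It called only 57 of all these genes ex vivo and 68 after stimulation. An unadjusted p under 0.05 was found for 1 subunit ex vivo and 7 after stimulation. At the minimum of 5 TPM, limma-voom on recovered reads called 4 and 9 subunits, and 1232 and 1165 of 13318 genes in all. On TPM as deposited, without scaling, Il1rl1 was called ex vivo and Il6ra after stimulation, and with stimulation in WT Il2rb, Il6st, Il12rb1 and Il4ra were no longer called. With the replicate number as a block, 3 subunits were called between genotypes after stimulation (Il6ra, Il12rb1 and Il1rl1), and 630 genes in all. At 1 TPM no genotype or interaction call named here held other than those of Ikzf1, and of Socs2 after stimulation, and for stimulation Il6st, Il4ra and Stat4 were no longer called in WT.

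The subunits covered a wide range of levels. In ex vivo WT the order by mean scaled TPM was Il2rb (340.1), Il2rg (197), Il4ra (122), Il6st (92.8), Il6ra (86.4), Il27ra (72.3), Il7r (31.5), Il12rb1 (12.4), Il1rl1 (4.32) and Il12rb2 (1.95). The libraries of Il4ra, Il6st, Il6ra and Il27ra overlapped between neighbours in this order, and the other neighbours were apart in every library. In ex vivo cKO the order was the same. In stimulated cKO Il1rl1 had moved up to the fifth place, with a mean of 33.2, above Il6ra at 23.7. Il12rb2 was last in all 4 groups.

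**Figure D2:**
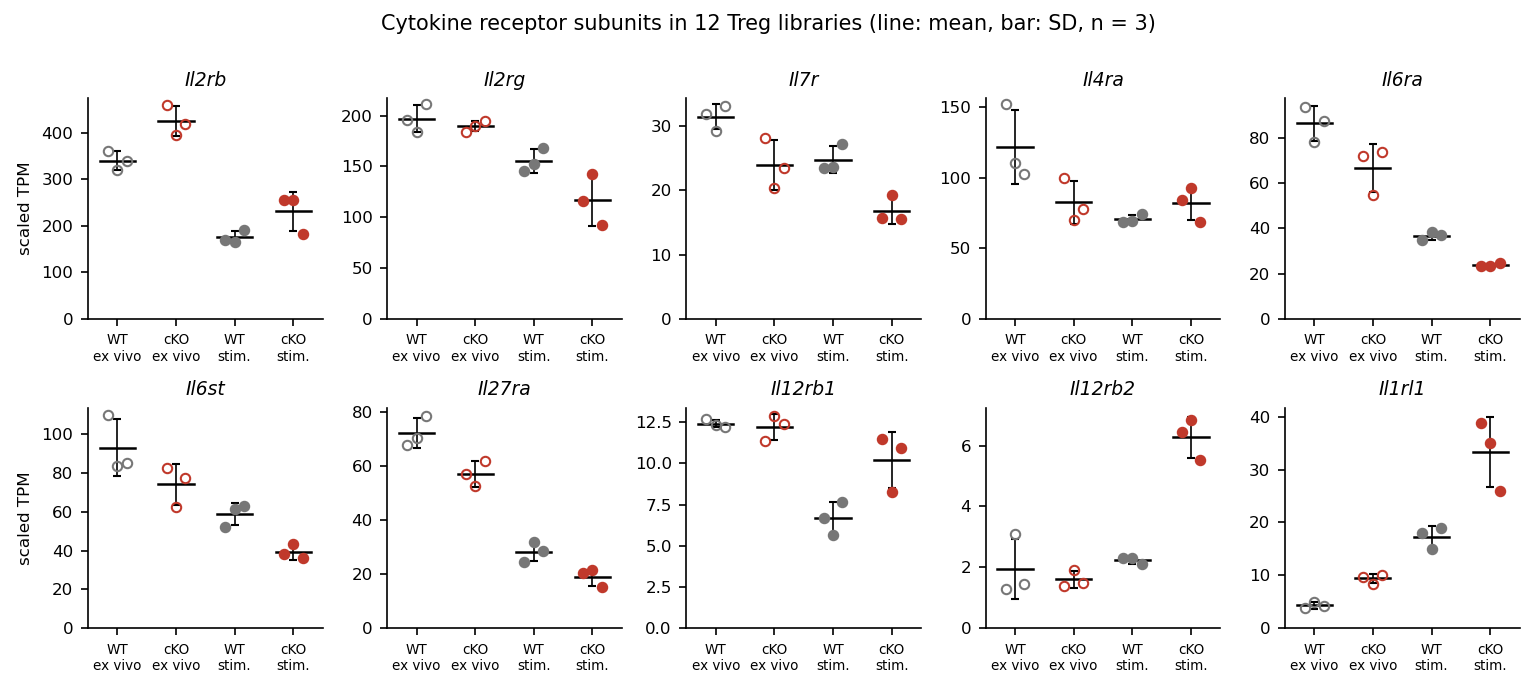
Scaled TPM (y axes, from 0) of the 10 subunits in each library of the 4 groups, with open points ex vivo, filled points after stimulation, grey for WT and red for cKO, a line at the mean and bars of 1 SD (n = 3). Il6ra and Il27ra step down from left to right, while Il1rl1 steps up from 4.32 ± 0.619 in ex vivo WT to 33.2 ± 6.61 in stimulated cKO.

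Il2rb, the signalling chain that IL-2 and IL-15 share (ENSMUSG00000068227, chromosome 15, 78310983 to 78325496 in NCBIM37, the assembly also called mm9), was the most abundant subunit. It stood at 360.4, 320.1 and 339.9 scaled TPM in ex vivo WT and at 459, 395 and 419.7 in ex vivo cKO. After stimulation it stood at 169.7, 166 and 191 in WT and at 254, 255 and 182 in cKO. The genotypes were apart in every library ex vivo, and overlapped after stimulation only through cKO library 3. The genotype difference was not called, with log2 changes of 0.32 (SE 0.13, adjusted p = 0.237) ex vivo and 0.38 (SE 0.13, adjusted p = 0.122) after stimulation, and it was called after stimulation when stimulated cKO 3 was left out (0.57, adjusted p = 0.0145). Stimulation lowered Il2rb by 1.93-fold in WT (log2 change -0.95, SE 0.13, adjusted p = 0.000353) and 1.86-fold in cKO (-0.89, SE 0.13, adjusted p = 0.000436). Under quantile normalization neither change was called, with -0.19 in WT (adjusted p = 0.233) and -0.077 in cKO (adjusted p = 0.614).

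Il2rg is the common gamma chain of the receptors for IL-2, IL-4, IL-7, IL-9, IL-15 and IL-21 (ENSMUSG00000031304, chromosome X, 98459717 to 98463594). It was measured at 196, 184 and 211 scaled TPM in ex vivo WT, 184, 190.0 and 195 in ex vivo cKO, 146, 153 and 168 in stimulated WT, and 116, 142 and 92.0 in stimulated cKO. The genotypes overlapped ex vivo and were apart after stimulation, with cKO below WT. Neither difference was called (log2 changes -0.05, SE 0.14, adjusted p = 0.91 and -0.43, SE 0.14, adjusted p = 0.0889). Stimulation lowered Il2rg in cKO (-0.72, SE 0.14, adjusted p = 0.00201), and in WT the change of -0.34 was not called (SE 0.14, adjusted p = 0.0816). Under quantile normalization the change with stimulation turned to 0.33 in WT, with an adjusted p of 0.0275, and to 0.04 in cKO. Of its 2387 exonic bases, 728 are shared on the same strand with the gene model Gm20489, so part of its reads could not be assigned to 1 gene.

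Il2ra (CD25), the chain that completes the high-affinity IL-2 receptor, is not one of the 10 but is given beside them. Its levels were 138, 115 and 148 scaled TPM in ex vivo WT, 133, 121 and 147 in ex vivo cKO, 112, 124 and 122 in stimulated WT, and 244, 228 and 165 in stimulated cKO. All 3 stimulated cKO libraries lay above all other libraries. Il2ra rose in cKO against WT after stimulation by 0.80 (log2, SE 0.15, adjusted p = 0.00972), and its genotype difference ex vivo was 0.00 (SE 0.15, adjusted p = 0.997). Il15ra, the matching high-affinity chain for IL-15, was higher in cKO both ex vivo (10.04 ± 0.898 against 6.18 ± 1.09 scaled TPM, SD, n = 3, log2 change 0.63, limma adjusted p = 0.03) and after stimulation (8.73 ± 1.43 against 4.77 ± 0.630, log2 change 0.75, limma adjusted p = 0.011). The Il15ra call ex vivo held in 7 of the 12 fits that left out 1 library, with the highest adjusted p of 0.121 without ex vivo WT 3, and the one after stimulation in 11, with 0.0567 without stimulated WT 2.

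Il7r (CD127), the IL-7 binding chain that Treg carry at a low level (ENSMUSG00000003882, chromosome 15, 9435916 to 9459631), was lower in cKO after stimulation. Its levels were 31.9, 29.3 and 33.1 scaled TPM in ex vivo WT against 28.1, 20.3 and 23.5 in ex vivo cKO, and 23.5, 23.6 and 27.2 in stimulated WT against 15.6, 19.2 and 15.6 in stimulated cKO. The genotypes were apart in every library in both conditions. The log2 change was -0.39 (SE 0.12, adjusted p = 0.109) ex vivo and -0.53 (SE 0.12, adjusted p = 0.0266) after stimulation, and only the second was called. Stimulation lowered Il7r in cKO (-0.48, SE 0.12, adjusted p = 0.00992; 0.052 without stimulated cKO 3), while the change of -0.33 in WT had an adjusted p of 0.0602.

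Promoter sequence is shown for the subunits that were called between genotypes and have one in the RefSeq table used, so that their sequence can be read beside their levels. Of the 10 subunits 7 had an entry, 8 entries in all, and Il2rb, Il12rb1 and Il27ra had none. Each is the 250 bases before a transcription start in GRCm38.p6, written 5′ to 3′ on the strand of the gene in lower case, with capitals for AGGAA and GGGAA, core letters of Ikaros binding motifs, and for TTCNNNGAA, the core of STAT binding motifs, on either strand. In all 32851 promoters of this length AGGAA was found in 60.3%, GGGAA in 56.2% and TTCNNNGAA in 7.02%. Among the 8 entries AGGAA was found in 8, GGGAA in 7 and TTCNNNGAA in 2, those of Il7r and Il12rb2. A match describes letters only and was not tested for binding. In Il7r (chr15:9529877-9530126, minus strand) the TTCNNNGAA match overlaps a GGGAA match.
Il7r: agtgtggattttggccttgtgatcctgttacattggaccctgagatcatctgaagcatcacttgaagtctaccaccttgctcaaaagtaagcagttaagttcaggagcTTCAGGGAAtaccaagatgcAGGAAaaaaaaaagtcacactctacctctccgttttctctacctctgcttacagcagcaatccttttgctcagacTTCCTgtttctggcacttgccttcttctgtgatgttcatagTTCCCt

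Il4ra, the IL-4 binding chain that also serves the IL-13 receptor (ENSMUSG00000030748, chromosome 7, 132695785 to 132722986), stood at 152, 110.3 and 103 scaled TPM in ex vivo WT and at 99.7, 70.1 and 77.9 in ex vivo cKO. After stimulation the values were 68.9, 69.1 and 74.4 in WT and 84.2, 92.5 and 68.9 in cKO. Every cKO library lay below every WT library ex vivo, and after stimulation the genotypes overlapped with the higher mean in cKO. Neither difference was called, with log2 changes of -0.55 (SE 0.17, adjusted p = 0.0992) ex vivo and 0.20 (SE 0.17, adjusted p = 0.509) after stimulation. Stimulation lowered Il4ra in WT by 1.69-fold (-0.75, SE 0.17, adjusted p = 0.00627). Under quantile normalization this change was -0.33 and was not called (adjusted p = 0.0776). In cKO the change with stimulation was -0.01 (SE 0.17, adjusted p = 0.976), and quantile normalization turned it to 0.57, with an adjusted p of 0.00532.

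Il6ra, Il6st and Il27ra fell with stimulation. Il6ra binds IL-6 (ENSMUSG00000027947, chromosome 3, 89673246 to 89717084), Il6st encodes gp130, the signalling chain shared by IL-6, IL-27 and related cytokines (ENSMUSG00000021756, chromosome 13, 113265216 to 113297068), and Il27ra is the chain that gp130 joins to bind IL-27 (ENSMUSG00000005465, chromosome 8, 86554186 to 86566488). All 3 fell in both genotypes, and all 3 were lower in cKO than in WT after stimulation. Lifr, Osmr and Il11ra1, other receptor chains that work with gp130, were under the expression minimum and were not tested.

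Il6ra stood at 93.5, 78.4 and 87.3 scaled TPM in ex vivo WT, at 72.2, 54.6 and 73.6 in ex vivo cKO, at 34.7, 38.3 and 37.0 in stimulated WT and at 23.2, 23.4 and 24.5 in stimulated cKO. No 2 of the 4 groups overlapped. Its genotype difference was -0.37 ex vivo (log2, SE 0.11, adjusted p = 0.0933) and -0.61 after stimulation (SE 0.11, adjusted p = 0.00985), a 1.52-fold lower level, with an adjusted p of 0.054 when stimulated WT 2 was left out. With stimulation it fell by 1.21 on the log2 scale in WT (SE 0.11, adjusted p = 2.62e-05) and fell by 1.44 in cKO (SE 0.11, adjusted p = 6.15e-06).

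Il6st stood at 109.7, 83.7 and 85.0 scaled TPM in ex vivo WT, at 82.7, 62.4 and 77.3 in ex vivo cKO, at 52.3, 61.2 and 62.8 in stimulated WT and at 38.1, 43.4 and 35.9 in stimulated cKO. Genotypes were apart in both conditions. The log2 change in cKO against WT was -0.32 (SE 0.14, adjusted p = 0.257) ex vivo and -0.57 (SE 0.14, adjusted p = 0.0325) after stimulation. Stimulation lowered it 1.56-fold in WT (adjusted p = 0.00486) and 1.86-fold in cKO (adjusted p = 0.000505), and under quantile normalization the change in WT was -0.27 (adjusted p = 0.0533).

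Il27ra stood at 68.0, 70.5 and 78.5 scaled TPM in ex vivo WT, at 57.0, 52.5 and 62.0 in ex vivo cKO, at 24.7, 31.8 and 28.8 in stimulated WT and at 20.6, 21.5 and 15.2 in stimulated cKO. As for Il6ra, no 2 groups overlapped. The genotype difference was -0.33 (log2, SE 0.13, adjusted p = 0.217) ex vivo and -0.56 (SE 0.13, adjusted p = 0.0332) after stimulation. It fell with stimulation more than any other subunit, 2.5-fold in WT (adjusted p = 4.43e-05) and 2.92-fold in cKO (adjusted p = 1.17e-05), though its interval overlapped that of Il6ra in both genotypes.

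The promoters of Il6ra (chr3:89913197-89913446, minus strand) and Il6st (chr13:112463820-112464069, plus strand) are printed with the same capitals because both genes were lower in cKO. Both hold AGGAA and GGGAA, as do 7 of the 8 entries, and neither holds TTCNNNGAA.
Il6ra: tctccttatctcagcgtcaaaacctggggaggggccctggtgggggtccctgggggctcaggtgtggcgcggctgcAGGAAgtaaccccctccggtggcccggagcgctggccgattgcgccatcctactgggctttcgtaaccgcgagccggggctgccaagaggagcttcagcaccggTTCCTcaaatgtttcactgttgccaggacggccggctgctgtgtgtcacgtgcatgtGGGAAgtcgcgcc
Il6st: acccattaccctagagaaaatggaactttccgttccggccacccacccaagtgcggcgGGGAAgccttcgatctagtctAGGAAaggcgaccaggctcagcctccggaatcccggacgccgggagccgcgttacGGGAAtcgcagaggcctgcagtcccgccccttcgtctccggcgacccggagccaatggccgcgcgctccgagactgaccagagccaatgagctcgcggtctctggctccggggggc

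The IL-12 receptor chains were higher in cKO after stimulation, though Il12rb2 passed the expression minimum only through that group. Il12rb1 (ENSMUSG00000000791, chromosome 8, 73332348 to 73345323) is the chain shared by the IL-12 and IL-23 receptors, and Il12rb2 (ENSMUSG00000018341, chromosome 6, 67241312 to 67326182) is the IL-12 specific signalling chain, which is low in resting T cells. Il12rb1 stood at 12.7, 12.3 and 12.2 scaled TPM in ex vivo WT and at 11.3, 12.9 and 12.4 in ex vivo cKO, a difference of -0.02 (log2, SE 0.12, adjusted p = 0.959). After stimulation it stood at 6.68, 5.68 and 7.64 in WT and at 11.5, 8.27 and 10.9 in cKO, with every cKO library above every WT library. This difference of 0.54 (SE 0.12, adjusted p = 0.0249) was called. Stimulation lowered Il12rb1 1.76-fold in WT (adjusted p = 0.000583), and the change in cKO was -0.25 (SE 0.12, adjusted p = 0.128).

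Il12rb2 stood at 1.30, 3.09 and 1.45 scaled TPM in ex vivo WT, 1.39, 1.93 and 1.503 in ex vivo cKO and 2.31, 2.32 and 2.099 in stimulated WT. In stimulated cKO it stood at 6.44, 6.84 and 5.54, above every other library. These values rest on 51 to 192 reads per library. Il12rb2 was tested only because of its level in stimulated cKO, so its comparisons with that group are in part selected for a rise. On values with 1 TPM added, Il12rb2 rose in cKO with stimulation by 2.79-fold (log2 change 1.48, SE 0.31, adjusted p = 0.00333). Stimulated cKO was 2.24-fold above stimulated WT (1.16, SE 0.31, adjusted p = 0.0482), a call held in only 2 of the 12 fits without 1 library. Its highest adjusted p was 0.16, without stimulated cKO 1. Without the added 1, the group means were 1.61 in ex vivo cKO, 2.24 in stimulated WT and 6.27 in stimulated cKO. The genotype difference ex vivo was -0.13 (SE 0.31, adjusted p = 0.895), and stimulation in WT gave 0.19 (SE 0.31, adjusted p = 0.681). As a measure of background, 1555 olfactory and vomeronasal receptor genes had a median of 0.742 scaled TPM in ex vivo WT, 0.761 in ex vivo cKO, 0.883 in stimulated WT and 1.19 in stimulated cKO. The share of them at or above Il12rb2 was 2.06%, 4.63%, 1.09% and 0.0643% in the same order, so Il12rb2 lay near the upper end of this background in 3 groups and above nearly all of it in stimulated cKO. Il23r, the IL-23 specific partner of Il12rb1, was under the expression minimum, with 1.66 to 3.58 scaled TPM as group means.

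In the Il12rb2 promoter (chr6:67376189-67376438, minus strand) the TTCNNNGAA match lies 123 to 115 bases before the start, and in Il7r, which was lower in cKO, it lies 142 to 134 bases before the start.
Il12rb2: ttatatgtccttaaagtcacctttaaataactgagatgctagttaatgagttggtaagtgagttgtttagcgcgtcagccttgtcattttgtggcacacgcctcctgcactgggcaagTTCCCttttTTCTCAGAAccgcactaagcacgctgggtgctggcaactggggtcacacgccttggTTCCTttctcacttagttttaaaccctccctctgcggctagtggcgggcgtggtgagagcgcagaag

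Il1rl1 encodes ST2, the chain that binds IL-33 (ENSMUSG00000026069, chromosome 1, 40486415 to 40522260), and it was the one subunit called higher in all 4 comparisons. It stood at 3.80, 5.002 and 4.15 scaled TPM in ex vivo WT, at 9.75, 8.41 and 10.1 in ex vivo cKO, at 18.1, 14.9 and 18.9 in stimulated WT and at 38.8, 34.9 and 25.9 in stimulated cKO. No 2 groups overlapped, and every step from ex vivo WT through ex vivo cKO and stimulated WT to stimulated cKO was upward. Il1rl1 was higher in cKO by 1.96-fold ex vivo (log2 change 0.97, SE 0.15, adjusted p = 0.00477) and by 1.85-fold after stimulation (0.89, SE 0.15, adjusted p = 0.00562). Stimulation raised it 3.44-fold in WT (adjusted p = 1.4e-05) and 3.25-fold in cKO (adjusted p = 1.27e-05). Its rise with stimulation was 1.78 in WT and 1.70 in cKO on the log2 scale, a difference of -0.08 with a 95% interval from -0.55 to 0.39. Il1rap, the co-receptor chain that ST2 needs to signal, was under the expression minimum, at 4.01 ± 0.685 in ex vivo WT, 3.87 ± 0.441 in ex vivo cKO, 3.27 ± 0.141 in stimulated WT and 3.88 ± 0.484 in stimulated cKO (SD, n = 3). Il33, its ligand, had group means of 1.33 to 2.16.

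Mast cells and basophils also carry ST2. The 5 markers of these cells summed to 5.82 to 9.70 scaled TPM in ex vivo WT and to between 4.6004 and 11.1 in ex vivo cKO, overlapping ranges, and to 10.4 to 13.1 in stimulated WT and 12.9 to 19.9 in stimulated cKO. All 5 were under the expression minimum of 5 TPM, and none of them at 0. From ex vivo WT to ex vivo cKO the means of 2 of them were higher, 0.905 against 2.12 for Mcpt8 and 2.01 against 2.23 for Kit, and those of 3 were lower, 1.42 against 0.746 for Cpa3, 1.08 against 0.891 for Fcer1a and 2.002 against 1.35 for Ms4a2. After stimulation the means of all 5 were higher in cKO than in WT. The median of the olfactory and vomeronasal receptor genes was higher there too, at 1.19 against 0.883 scaled TPM. The part of mast cells and basophils in the changes of Il1rl1 was not tested.

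Il1rl1 has a distal (chr1:40429320-40429569, plus strand) and a proximal (chr1:40439379-40439628, plus strand) start 10059 bases apart in RefSeq. Gene-level values do not tell which start was used. The distal entry holds AGGAA without GGGAA, and the proximal one holds both.
Il1rl1 distal: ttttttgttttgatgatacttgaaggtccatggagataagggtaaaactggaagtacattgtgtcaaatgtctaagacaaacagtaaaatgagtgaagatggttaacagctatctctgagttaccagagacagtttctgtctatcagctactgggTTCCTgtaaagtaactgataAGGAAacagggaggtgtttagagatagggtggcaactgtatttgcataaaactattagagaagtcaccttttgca
Il1rl1 proximal: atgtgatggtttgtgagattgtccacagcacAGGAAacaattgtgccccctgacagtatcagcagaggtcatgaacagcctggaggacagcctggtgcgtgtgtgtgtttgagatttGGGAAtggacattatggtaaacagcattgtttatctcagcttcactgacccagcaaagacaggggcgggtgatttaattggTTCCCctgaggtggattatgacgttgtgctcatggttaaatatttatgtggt

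Ratios of chains that share a receptor were taken within each library, where the scaling between libraries has no part. The pairs were chosen after their levels had been seen, and an exact permutation test of 3 libraries against 3 cannot give a two-sided p below 0.1. For 8 pairs in 4 comparisons, 32 tests in all, the Benjamini-Hochberg adjusted p was 0.145 at the least. Il2rb to Il2rg was 1.84, 1.74 and 1.61 in ex vivo WT against 2.49, 2.08 and 2.16 in ex vivo cKO, and 1.17, 1.09 and 1.14 in stimulated WT against 2.19, 1.79 and 1.98 in stimulated cKO. All cKO libraries lay above all WT libraries in both conditions (exact permutation p = 0.1 in each). Il2ra to Il2rb was lower in all cKO libraries ex vivo, with means of 0.315 against 0.392, and higher in all of them after stimulation, 0.919 against 0.683. Il7r to Il2rg was lower in all cKO libraries ex vivo, with means of 0.127 against 0.1597, and overlapped after stimulation, with 0.146 in cKO and 0.159 in WT.

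For the receptors that use gp130 the ratios did not separate the genotypes. Il6ra to Il6st was 0.939 ± 0.0877 in ex vivo WT and 0.900 ± 0.0451 in ex vivo cKO, and 0.626 ± 0.0370 in stimulated WT and 0.610 ± 0.0715 in stimulated cKO (SD, n = 3), and the genotypes overlapped in both conditions. The same held for Il27ra to Il6st. With stimulation both ratios were lower in all libraries of both genotypes, since the binding chains fell further than gp130. For IL-12, Il12rb2 to Il12rb1 was 0.343 ± 0.0669 in stimulated WT and 0.632 ± 0.170 in stimulated cKO, and for IL-33, Il1rl1 to Il1rap was 1.08 ± 0.113 in ex vivo WT, 2.46 ± 0.458 in ex vivo cKO, 5.28 ± 0.441 in stimulated WT and 8.77 ± 2.62 in stimulated cKO. Il4ra to Il2rg was 0.621 ± 0.146 in ex vivo WT and 0.437 ± 0.0918 in ex vivo cKO, with overlap and the lower mean in cKO, and 0.456 ± 0.0159 in stimulated WT and 0.708 ± 0.0517 in stimulated cKO, without overlap and with the higher mean in cKO.

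**Figure D3:**
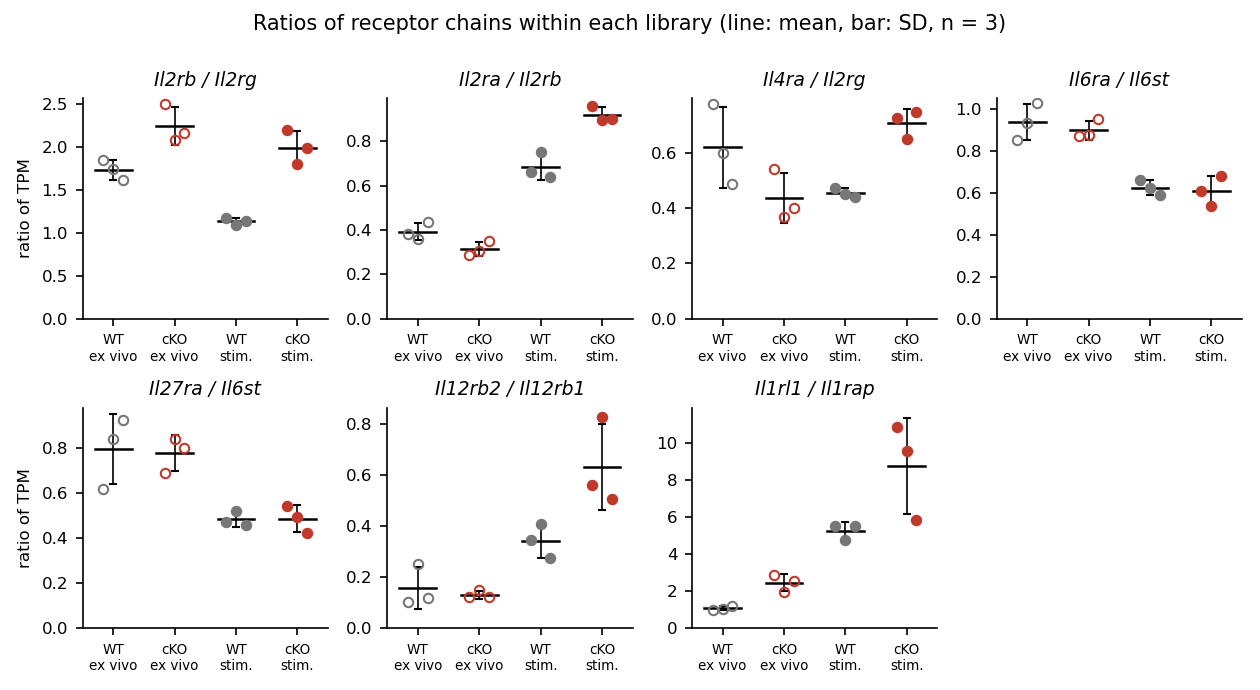
Ratio of the TPM of 2 receptor chains (y axes, from 0) in each library of the 4 groups for 7 pairs, with open points ex vivo, filled points after stimulation, grey for WT and red for cKO, a line at the mean and bars of 1 SD (n = 3). Il2rb to Il2rg is higher in all cKO libraries of both conditions, while the genotypes overlap for Il6ra and Il27ra against Il6st.

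Whether the effect of stimulation differed between genotypes was tested by the interaction term. None of the 10 subunits was called by limma, where 1.1% of all tested genes were. On the recovered reads limma-voom called 2 subunits (Il12rb2 and Il4ra) and 336 of 13318 genes in all. In the limma fit an unadjusted p under 0.05 was found for 3 subunits and for 1926 of the 13318 tested genes. The 3 were Il12rb1 (0.57 on the log2 scale, 95% interval 0.18 to 0.95, adjusted p = 0.156), Il12rb2 (1.30, 0.33 to 2.26, adjusted p = 0.199) and Il4ra (0.75, 0.22 to 1.27, adjusted p = 0.176). Differences between the genotypes in which subunits passed the threshold with stimulation are therefore not shown to be differences of the effect.

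Among 30 other cytokine receptor subunits, 18 passed the expression minimum. In ex vivo cKO 4 of them were higher and 1 lower than in WT, with a median log2 change of 0.07, and after stimulation 5 were higher and 5 lower, with a median of 0.00. For this and the later lists, the shares of all tested genes called higher and lower are the background. They were 3.62% and 1.67% between genotypes ex vivo and 3.3% and 3.63% after stimulation. For stimulation they were 12.7% and 19.3% in WT and 17.3% and 26.5% in cKO, and the interaction called 1.1%. Higher ex vivo were Il9r, the IL-9 binding partner of Il2rg, which passed the minimum only through this group (3.80 ± 0.537 in WT against 7.80 ± 0.678 in cKO, log2 change 0.88, limma adjusted p = 0.00892, or 0.0572 without ex vivo cKO 1), Il18r1, the IL-18 binding chain (0.65, adjusted p = 0.00559), Il10ra, the IL-10 binding chain (0.53, adjusted p = 0.0183, up to 0.0811 without ex vivo WT 3), and Il15ra. Ifngr1, the interferon-gamma binding chain, was lower, at 244, 191 and 184 scaled TPM in ex vivo WT against 120.0, 96.7 and 97.5 in ex vivo cKO (log2 change -0.97, adjusted p = 0.00498). After stimulation Il10ra was again higher in cKO (0.69, adjusted p = 0.00392), as were Il2ra and Il15ra. Il3ra, the IL-3 binding chain (0.48, adjusted p = 0.0161, or 0.0800 without stimulated WT 2), and Csf2ra, the GM-CSF binding chain (0.68, adjusted p = 0.0259, or 0.0911 without stimulated WT 2 and called in 6 of the 12 fits without 1 library), were higher too, and were named after their values were seen. Lower in cKO after stimulation were Sigirr, an inhibitory member of the IL-1 receptor family (-0.51, adjusted p = 0.00184), the IL-1 decoy receptor Il1r2 (-0.88, adjusted p = 0.00399), Il17ra, the shared chain of IL-17 receptors (-0.61, adjusted p = 0.00803), Ifnar1, a chain of the type I interferon receptor (-0.72, adjusted p = 0.0105, or 0.0568 without stimulated WT 2, named after its value was seen), and Il21r, the IL-21 binding partner of Il2rg.

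Il21r stood at 155 ± 10.3 scaled TPM in ex vivo WT, 179 ± 15.1 in ex vivo cKO, 128 ± 6.34 in stimulated WT and 87.1 ± 17.6 in stimulated cKO (SD, n = 3). Its log2 change in cKO after stimulation was -0.57 (limma adjusted p = 0.0249, called in 7 of the 12 fits without 1 library and at 0.108 without stimulated WT 2). Crlf2, the chain that joins Il7r to bind TSLP, had genotype differences of -0.14 ex vivo (adjusted p = 0.638) and 0.10 after stimulation (adjusted p = 0.66). Stimulation lowered 3 and raised 2 of the 18 in WT, and lowered 8 and raised 3 in cKO. The interaction called 0 of the 18, with 9 at an unadjusted p under 0.05 and 5 called by limma-voom.

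Of 18 ligand genes of these receptors, 5 passed the expression minimum, with 1 higher in ex vivo cKO and 3 after stimulation. Ebi3, the subunit that joins p28 to form IL-27, was at 22.1, 23.1 and 18.9 scaled TPM in ex vivo WT and at 51.0, 45.0 and 54.0 in ex vivo cKO (log2 change 1.19, adjusted p = 0.00494), and at 12.4, 8.26 and 14.7 in stimulated WT and 22.6, 31.5 and 29.7 in stimulated cKO (a log2 change of 1.197, adjusted p = 0.00345). Every cKO library of Ebi3 lay above every WT library of its condition. Il27, the gene of p28, was read at 1.97 to 5.49 scaled TPM as group means. Il2 was near background in 3 groups, at 0.339 to 2.03 scaled TPM, and stood at 11.8, 10.7 and 6.35 in stimulated cKO, the group through which it passed the minimum (log2 change against WT 2.101, adjusted p = 0.0209, called in 8 of the 12 fits without 1 library, highest adjusted p 0.14 without stimulated cKO 1). Lif, a gp130 cytokine, was higher in cKO after stimulation (0.64, adjusted p = 0.0401, called in 4 of the 12 fits, highest adjusted p 0.134 without stimulated cKO 1). Stimulation raised 1 and lowered 1 of these 5 in WT, and raised 3 and lowered 1 in cKO.

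All 11 JAK and STAT genes were expressed above the minimum. Ex vivo limma called 0 of them between genotypes, with 5 at an unadjusted p under 0.05 and 1 called by limma-voom. After stimulation 2 were higher in cKO, among them Stat2, a carrier of interferon signals (0.94, adjusted p = 0.000561). Stimulation raised 4 and lowered 3 of the 11 in WT, and raised 6 and lowered 2 in cKO. Jak3, the kinase bound to the common gamma chain, fell with stimulation in both genotypes, by 1.10 (adjusted p = 6.67e-05) and by 1.16 (adjusted p = 3.94e-05) on the log2 scale, and Stat4, which carries the IL-12 signal, rose by 1.35 in WT (adjusted p = 0.000101) and 1.74 in cKO (adjusted p = 1.54e-05).

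All 23 feedback inhibitors and targets of cytokine receptors were also expressed above the minimum, 1 of them, Osm, being in the ligand list too. Ex vivo 6 were higher in cKO and after stimulation 5 were higher and 3 lower, with a median log2 change of 0.08 in both. Socs2, a feedback inhibitor that STAT5 induces, stood at 4.92, 5.41 and 6.61 scaled TPM in ex vivo WT against 12.5, 15.0 and 14.4 in ex vivo cKO (1.17, adjusted p = 0.00147), and at 5.12, 4.16 and 5.17 in stimulated WT against 26.6, 23.7 and 18.2 in stimulated cKO (2.02, adjusted p = 6.25e-05). Ptpn11, the phosphatase SHP-2, was higher in ex vivo cKO (0.60, adjusted p = 0.00548, called in all 12 fits without 1 library), with 0.19 after stimulation (adjusted p = 0.25).

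Socs3, which binds gp130, was higher in cKO in both conditions. Its log2 change was 0.95 ex vivo (adjusted p = 0.0119, called in 10 of the 12 fits without 1 library, highest adjusted p 0.0547 without ex vivo cKO 1) and 0.85 after stimulation (adjusted p = 0.0179, called in 8 of the 12, highest 0.0646 without stimulated cKO 1). Cish, another STAT5 target, was also higher in both, by 0.69 ex vivo (adjusted p = 0.0205, called in 8 of the 12, highest 0.0882 without ex vivo cKO 3) and by 1.08 after stimulation (adjusted p = 0.00151). Socs5, a further feedback inhibitor, was higher in ex vivo cKO (0.41, adjusted p = 0.0178, called in 9 of the 12, highest 0.0763 without ex vivo cKO 1) and lower after stimulation (-0.34, adjusted p = 0.0307, called in 8 of the 12, highest 0.138 without stimulated WT 2).

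The interaction called 3 of these 23 genes. Socs1, an inhibitor of JAK activity, stood at 61.3, 38.5 and 51.1 scaled TPM in stimulated WT and at 278, 239 and 176 in stimulated cKO (log2 change 2.18, adjusted p = 0.000285), with an interaction of 2.04 (adjusted p = 0.0137). Bcl2, a survival factor induced through the common gamma chain, stood at 50.9 ± 5.42 in ex vivo WT, 39.7 ± 4.37 in ex vivo cKO, 18.7 ± 0.128 in stimulated WT and 38.1 ± 5.63 in stimulated cKO (SD, n = 3), and its interaction was 1.33 (limma adjusted p = 0.0122). It fell with stimulation in WT, and its change in cKO was not called. Socs5 had an interaction of -0.75 (adjusted p = 0.0149). Stimulation raised 6 and lowered 7 of the 23 in WT, and raised 7 and lowered 8 in cKO.

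**Figure D4:**
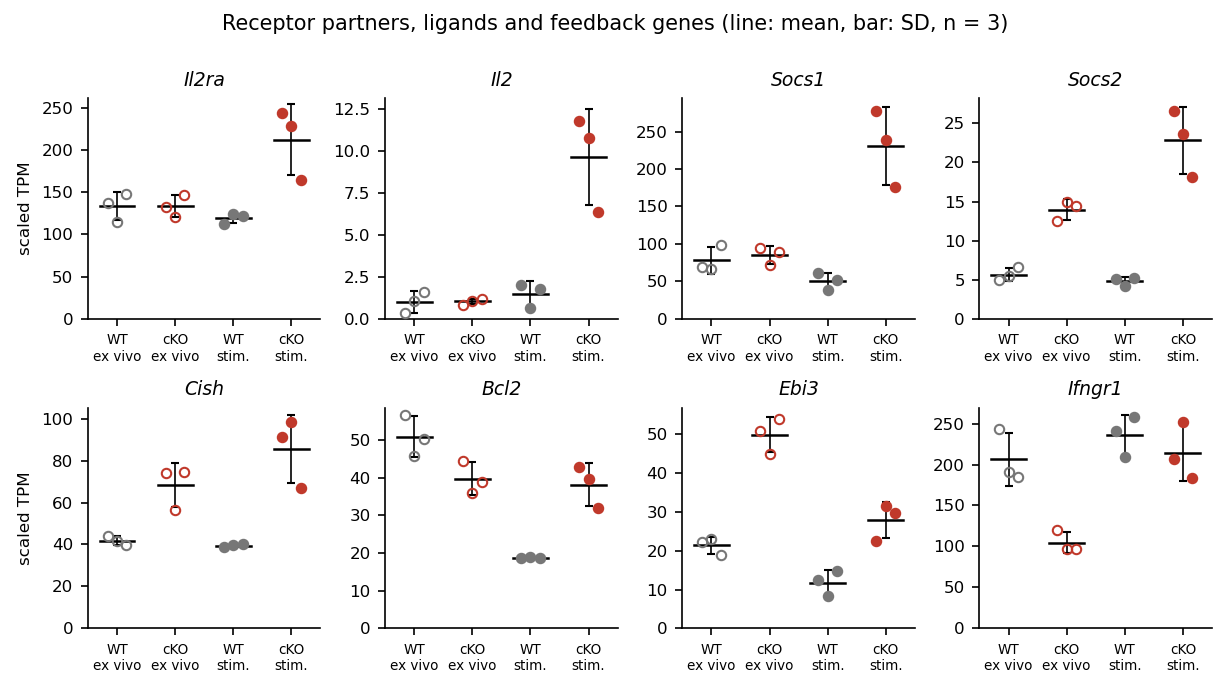
Scaled TPM (y axes, from 0) of the receptor chains Il2ra and Ifngr1, the ligand genes Il2 and Ebi3, and the feedback or target genes Socs1, Socs2, Cish and Bcl2 in each library, with open points ex vivo, filled points after stimulation, grey for WT and red for cKO, a line at the mean and bars of 1 SD (n = 3). Il2ra, Il2 and Socs1 stand highest in the 3 stimulated cKO libraries, and Ifngr1 is lowest in the 3 ex vivo cKO libraries.

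Markers of other cells were low beside those of Treg. The 5 B cell markers summed to 10.5 to 16.8 scaled TPM in ex vivo WT, 17.7 to 21.9 in ex vivo cKO, 12.5 to 14.0 in stimulated WT and 17.5 to 28.0 in stimulated cKO, higher in cKO in both conditions, and 1 of them, Cd79b, was called (log2 change 0.96 after stimulation, adjusted p = 0.0283, or 0.111 without stimulated WT 2). The 4 NK cell markers summed to 9.92 to 14.3 in stimulated cKO and 6.91 to 7.67 in stimulated WT, and overlapped between genotypes ex vivo. The olfactory and vomeronasal receptor genes also had a higher median in stimulated cKO than in stimulated WT, 1.19 against 0.883 scaled TPM. The 2 CD8 markers (8.72 to 14.5 over all libraries), the 6 myeloid and dendritic markers (14.5 to 31.1, higher in all stimulated than all ex vivo libraries) and the 4 erythroid markers (2.23 to 9.40) overlapped between genotypes in both conditions. B cells also express Il4ra, and NK cells express Il2rb and the IL-12 receptor, and the part of such cells in these results was not tested. Foxp3 itself was higher in cKO than in WT after stimulation (0.96, adjusted p = 0.00847).

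Across the 12 libraries Pearson's r of log2(scaled TPM + 1) differed between pairs of subunits. It was 0.98 between Il6ra and Il27ra and 0.96 between Il6ra and Il6st, it was -0.96 between Il6ra and Il1rl1, and it was weak for others, such as 0.10 between Il7r and Il12rb1 and -0.16 between Il12rb1 and Il12rb2. These values describe 12 libraries that share 4 groups. Among all other genes with a symbol, the closest to Il2rb were Jak3 (r = 0.99) and Nedd9 (0.99), to Il2rg Sdhd (0.98) and Gm2382 (0.97), to Il7r Cast (0.96) and Add1 (0.96), and to Il4ra Nin (0.93) and E130309D02Rik (0.92). For Il6ra they were Ablim1 (0.99) and Prkacb (0.99), for Il6st Spnb2 (0.99) and Dusp11 (0.99), and for Il27ra Tagap (0.99) and Rpsa (0.99). Il12rb1 was nearest to Rrp1b (0.95) and Mtmr4 (0.94), Il12rb2 to Fam19a3 (0.98) and Rhoq (0.97), and Il1rl1 to Stx12 (0.98) and Zfp961 (0.98).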

How the data were processed

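RNA of 12 libraries was depleted of ribosomal RNA by the authors, made into strand-specific libraries, aligned to mm9 with STAR 2.6.0c and counted on Ensembl exons with HTSeq 0.6.1, per the submitters' processing notes. Per gene and library, the main deposited table gives a signal, TPM, for 36222 genes in each of the 12 libraries, and the log2 column the authors made of the same values, to which they added the worth of 1 read. The 2 columns gave back whole reads for 99.9977% of values within 0.01 (10 values did not), and limma-voom on these reads was an alternative. A second deposited table holds the authors' own fold changes and p-values and was not used.

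Genes that reached a mean of 5 TPM in some group were kept. TPM were scaled by a trimmed mean of M-values (30% of M and 5% of A trimmed), and log2(scaled TPM + 1) was fitted with limma 3.58.1 (eBayes with trend, 4 groups) in R 4.3.3. Such fold changes understate those of low genes. Files, reference tables and figures were handled in Python 3.11.15, and the fit was tested on simulated data. The minimum of 5 TPM was used because olfactory and vomeronasal receptor genes, silent in T cells, had group medians up to 1.19 scaled TPM. P-values were two-sided. Replicate libraries are of single mice. Deviations of same-numbered libraries correlated above 0.1 in 2 of 18 pairs (r from -0.21 to 0.26), so the numbers were not taken as pairs. Gene positions came from GENCODE vM1 on NCBIM37.

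The subunits and gene lists were chosen with earlier results of these data known. All subunits are named. From each list up to 4 called genes per comparison were named, those of smallest adjusted p, with partner chains and ligands of the subunits beside them, and Ifnar1, Il3ra, Csf2ra and the values of a named gene in the other condition were added afterwards. For likeness, the 2 genes of highest r were named per subunit. Foxp3, Cd79b and the mast cell and basophil markers are named as marker values. A further list gene that the rule names is not reported here.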

Additional observations from a re-analysis of the deposited data

How the results depend on the processing

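Of 2386 alternative values for 100 gene results, 2068 kept their direction and their side of the threshold, 265 lost a call, 24 gained one and 29 changed sign; the causes were not tested. Subunits called between genotypes ex vivo numbered 0 with a minimum of 1 TPM, 0 without a minimum, 3 under quantile normalization and 4 with limma-voom. Calls over all tested genes in these fits numbered 57 of 33873, 56 of 36222, 673 of 13318 and 1232 of 13318. After stimulation the called subunits numbered 0 with 1 TPM, 0 without a minimum, 1 (Il6ra) on TPM as deposited, 3 with a replicate block (Il6ra, Il12rb1 and Il1rl1), 4 when only the 2 groups compared were fitted, and 1 to 7 without 1 library. Calls over all tested genes numbered 68, 68, 306, 630, 546 and 398 to 1058 in the same order, against 923 in the main fit. The block moved no other count of called subunits. For stimulation in WT, TPM as deposited gave 3, and for the interaction quantile normalization gave 1 and limma-voom 2. On TPM as deposited the median genotype change of all tested genes was 0.21 ex vivo and -0.30 after stimulation, against -0.01 and -0.03 with scaling. For the genotype effect ex vivo, TPM as deposited turned Il2rg to 0.18, Il12rb1 to 0.20 and Il12rb2 to 0.031, and quantile normalization turned Il2rg to 0.024. Without 1 library, Il12rb1 ranged from -0.061 to 0.021 and Il12rb2 from -0.29 to 0.13. After stimulation Il4ra turned to -0.11 with 1 TPM, -0.10 without a minimum and -0.091 as deposited. For stimulation, quantile normalization gave Il2rg 0.33 in WT and 0.036 in cKO, Il12rb2 -0.21 in WT and Il4ra 0.57 in cKO, where median of ratios scaling gave Il4ra 0.057, limma-voom 0.014 and the fits without 1 library -0.14 to 0.15. The interaction of Ikzf1 turned to -0.043 with 1 TPM, -0.060 without a minimum and -0.29 as deposited, and that of Il2rb to -0.23, -0.25 and -0.47, with -0.051 to 0.26 without 1 library. The interaction of Il1rl1 turned to 0.25 under quantile normalization and 0.14 with a pseudocount of 5, with -0.20 to 0.12 without 1 library. Among the 10 subunits depth limits Il12rb2 most, with 51 to 192 reads per library. Outside the 10, Il2 had fewer, 4 to 23 in ex vivo WT, 12 to 17 in ex vivo cKO, 7 to 21 in stimulated WT and 38 to 97 in stimulated cKO.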
